A study of Mus musculus with 4 samples.

Results

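Small RNA libraries from mouse liver were examined for 6 mature microRNAs (miRNAs) of blood-derived and inflammatory cells: mmu-miR-142a-5p and mmu-miR-142a-3p, mmu-miR-223-3p and mmu-miR-223-5p, mmu-miR-146a-5p and mmu-miR-146b-5p, written without the species prefix below. They were taken by name from the 1907 mature miRNAs listed in each count file, and all 6 were detected in every library. The treated livers came from C57BL/6 mice given thioacetamide (TAA), a hepatotoxin used to produce liver fibrosis in rodents, intraperitoneally at 200 mg/kg, 3 times a week for 10 weeks. The control livers came from C57BL/6 mice with the same labelled age, 15 weeks. The labels describe no injection given to the controls. There were 2 libraries of TAA-treated and 2 of control liver. The design text speaks of biological replicates but no label names an animal, so p-values measure the spread between these libraries.

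A miRNA guides a silencing complex to messenger RNAs that pair with its seed, bases 2 to 8 from the 5′ end. A hairpin precursor yields a 5p and a 3p arm, one of which usually accumulates while the other is degraded. miR-142 is made in cells of the blood lineage and hardly in other tissues. miR-223 is a miRNA of neutrophils, monocytes and macrophages, where it restrains granulocyte activation. miR-146a is transcribed under NF-kB after Toll-like receptor (TLR) signalling and represses the signalling adaptors Irak1 and Traf6, so it acts as a brake on inflammation. In liver, miR-142 and miR-223 come largely from Kupffer cells, which are the resident macrophages, and from infiltrating leukocytes.

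The mature sequences are shown because the miR-146 paralogs share a seed and the hairpins use opposite arms. RefSeq (GRCm38.p6) gave all 6, and also miR-142b, which lies antisense to miR-142a. The capitals mark the seed, and each sequence runs 5′ to 3′.
miR-142a-5p: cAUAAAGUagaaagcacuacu
miR-142a-3p: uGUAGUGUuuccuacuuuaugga
miR-142b: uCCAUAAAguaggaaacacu
miR-223-5p: cGUGUAUUugacaagcugaguug
miR-223-3p: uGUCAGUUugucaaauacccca
miR-146a-5p: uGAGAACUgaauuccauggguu
miR-146b-5p: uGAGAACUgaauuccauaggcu

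The 6 members carry 5 seeds. miR-146a-5p and miR-146b-5p are the pair with a common seed, GAGAACU, and no other RefSeq mature miRNA of the mouse table carried a seed of any member. The paralogs are identical at 20 of 22 positions. The differences are G18A and U21C, counted from 1 at the 5′ end with the miR-146a-5p base first. Their first 17 bases are the same, so a read cut short before position 18 belongs to either. All 4 files list 0 reads with more than 1 alignment, and no source used here says how such reads were treated.

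The members come from 4 loci. The miR-142a hairpin lies on chromosome 11 at 87756864 to 87756927, on the plus strand, in an intron of the long non-coding RNA Mir142hg. The miR-223 hairpin lies on chromosome X at 96242817 to 96242926, on the plus strand, within an exon of the non-coding gene F630028O10Rik. The miR-146a hairpin lies on chromosome 11 at 43374397 to 43374461, on the minus strand, outside other annotated genes. The miR-146b hairpin lies on chromosome 19 at 46342762 to 46342870, on the plus strand, in an intron of the protein-coding gene Mfsd13a. Positions are those of GRCm38, the build mm10 stands for, and hosts are from the GENCODE annotation.

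The libraries held 43836911 and 48878003 miRNA counts in TAA-treated liver, against 42609845 and 46224018 in control liver. Values are CPM, the counts relative to library size after TMM scaling, so that 1 CPM stands for 45.5 and 51.3 counts in TAA-treated liver, against 42.3 and 42.8 in control liver. Hepatocyte miRNAs were present in all libraries, with miR-122-5p, the hepatocyte-specific miRNA, between 17380 and 21610 CPM. A pair of libraries stood apart. In control 1, all 3 pancreatic miRNAs were raised: miR-375-3p had 463 and 481 counts in TAA-treated liver, against 4373 in control 1 and 362 in control 2. miR-216a-5p had 10 and 0 counts in TAA-treated liver, against 113 in control 1 and 0 in control 2. miR-217-5p had 6 and 5 counts in TAA-treated liver, against 125 in control 1 and 0 in control 2. In TAA 2, the 5 erythroid miRNAs summed to 2627 CPM, while TAA 1 held 732 CPM and the controls 445 and 274 CPM. Their part in the results below was not tested, and the log2 fold change of each member is given with and without these libraries. In whole liver, more or fewer cells of a type cannot be told apart from more or less of the miRNA in each cell.

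Of the 6 members, miR-146b-5p alone rose, 1.65-fold. The fitted folds of the other 5 were between 1.21 and 1.49 and did not pass the test. For comparison, 14.0% of the 644 miRNAs tested passed as higher in TAA-treated liver and 2.64% as lower, 16.6% in all. Of those calls 84.1% were higher, against 72.2% with upper-quartile factors (83 higher, 32 lower), 89.9% with library size alone (107 higher, 12 lower) and 64.3% with the miRNAs of the imprinted Dlk1-Dio3 cluster removed before the fit (9 higher, 5 lower). A log2 fold change above 0 was found for all 6 members and for 49.8% of the tested miRNAs. An unadjusted p under 0.05 with a higher level was found for 3 members and for 18.0% of the tested miRNAs. The test was edgeR's quasi-likelihood test with Benjamini-Hochberg adjustment over those 644 and a threshold of 0.05. The members' median log2 fold change was 0.50, against -0.004 for all tested miRNAs. In TMM-scaled CPM, both TAA libraries lay above both controls in 4 of the 6, which was so for 29.7% of the tested miRNAs. On that scale control 1 was the lowest of the 4 libraries for all 6 members, and TAA 1 was the highest for 4. The members together took 0.229% and 0.190% of miRNA counts in TAA-treated liver, against 0.109% and 0.155% in control liver. Leaving out 1 library leaves 1 in its group, so the text gives only effect sizes for those fits. The members' median log2 fold change was 0.48 without TAA 1, 0.61 without TAA 2, 0.29 without control 1 and 0.75 without control 2.

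**Figure D1:**
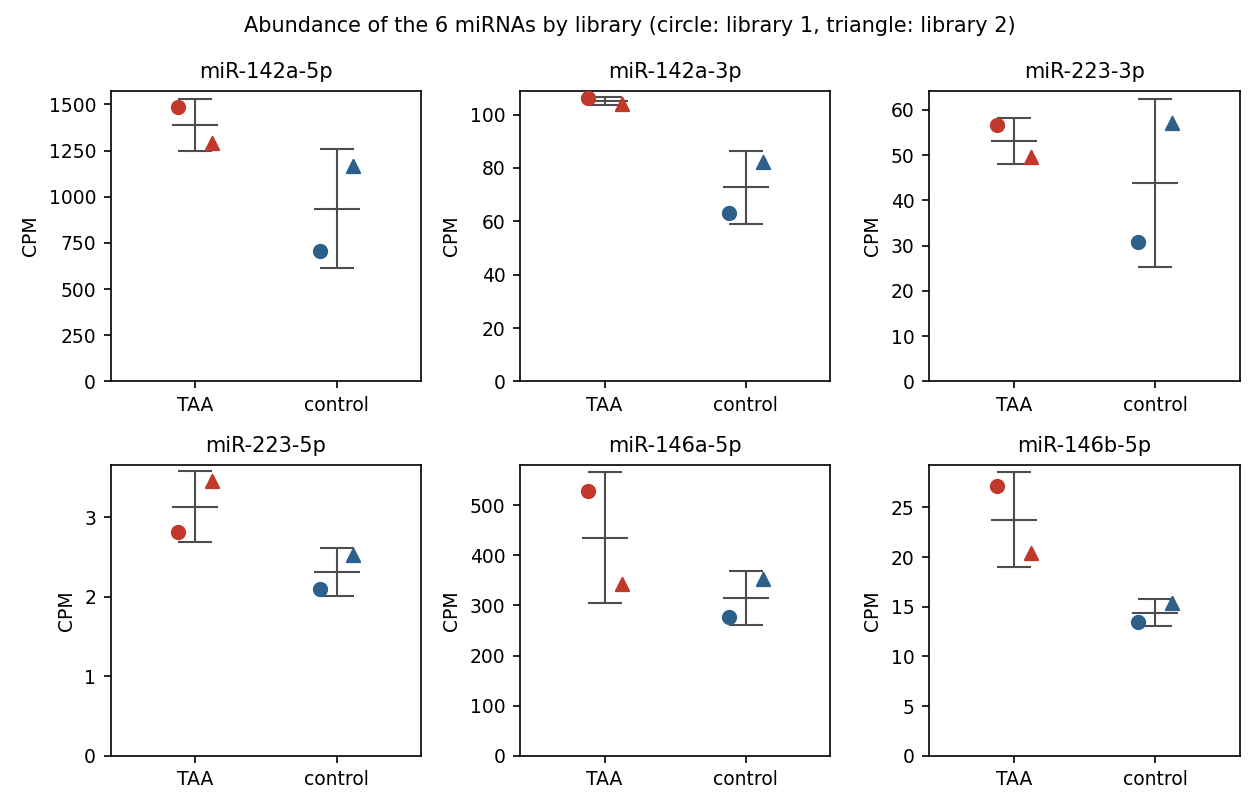
Abundance of each miRNA in CPM (vertical axis, from 0) in the TAA and control libraries; circles are library 1 and triangles library 2, and the horizontal line and bar give the mean ± SD (n = 2). Control 1 is the lowest point in all 6 panels, and in these TMM-scaled values the groups overlap for miR-223-3p and miR-146a-5p.

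Of the hematopoietic miR-142a, the 5p arm was the most abundant of the 6, ranking 41 and 46 among the miRNAs of the TAA libraries, against 59 and 48 in the controls. miR-142a-5p had 1488 and 1290 CPM in TAA-treated liver, against 706 and 1164 CPM in control liver. Both TAA libraries were above both controls, but control 2 lay closer to TAA 2 than to control 1. It averaged 1389 ± 140 CPM in TAA-treated and 935 ± 324 CPM in control liver (SD, n = 2 each). The log2 fold change was 0.57 (SE 0.22, 95% interval 0.07 to 1.07), with an edgeR adjusted p of 0.138. Single TAA libraries exceeded single controls by 1.11-fold to 2.11-fold. The change was 0.67 without TAA 2, 0.235 without control 1 and 0.97 without control 2.

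The 3p arm of miR-142a was lower in level. miR-142a-3p had 106 and 104 CPM in TAA-treated liver, against 63.1 and 82.4 CPM in control liver. The groups did not overlap, and the TAA libraries differed from each other by less than the controls did. It averaged 105 ± 1.56 CPM in TAA-treated and 72.8 ± 13.6 CPM in control liver (SD, n = 2 each). The log2 fold change was 0.53 (SE 0.17, 95% interval 0.14 to 0.92), with an edgeR adjusted p of 0.0756. It passed with DESeq2 (adjusted p = 0.0254), library size alone (0.0162) and no filter on low counts (0.0315). It did not pass with limma-voom (adjusted p = 0.066), RLE factors (0.0849), upper-quartile factors (0.247) or a minimum of 10 CPM (0.0751). Nor did it pass with the replicate block (adjusted p = 0.0715) or with the Dlk1-Dio3 miRNAs removed (0.12). The log2 fold change was 0.55 without TAA 2, 0.33 without control 1 and 0.73 without control 2. miR-142b, the antisense miRNA, had 0 and 1 counts in TAA-treated and 0 and 0 in control liver, where miR-142a-3p on the other strand had 4828 and 5336 counts in TAA-treated and 2672 and 3522 in control liver.

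Of the myeloid miR-223, the 3p arm did not separate the groups. miR-223-3p had 56.7 and 49.6 CPM in TAA-treated liver, against 30.8 and 57.0 CPM in control liver. In TMM-scaled CPM the controls spanned both TAA libraries, and control 2 was the highest of the 4. By share of miRNA counts TAA 1 was the highest, at 0.005876%, against 0.005272% in control 2. It averaged 53.1 ± 5.01 CPM in TAA-treated and 43.9 ± 18.5 CPM in control liver (SD, n = 2 each). The log2 fold change was 0.28 (SE 0.27, 95% interval -0.35 to 0.90), with an edgeR adjusted p of 0.605. The direction depended on the control library. Without control 1 the log2 fold change was -0.12, and without control 2 it was 0.78. Without TAA 2 it was 0.37.

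The 5p arm of miR-223 was the rarest of the 6. miR-223-5p had 128 and 177 counts in TAA-treated liver, against 89 and 108 in control liver. In CPM these were 2.82 and 3.45 in TAA-treated liver, against 2.10 and 2.53 in control liver. The groups did not overlap, by a margin smaller than the counting error: 95% Poisson intervals were 106.8 to 152.2 counts for TAA 1 and 88.6 to 130.4 for control 2. The log2 fold change was 0.44 (SE 0.24, 95% interval -0.11 to 0.99), with an edgeR adjusted p of 0.307. The change was 0.29 both without TAA 2 and without control 1. With all libraries, it passed under no other setting that kept it, including DESeq2.

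Of the miR-146 pair, miR-146a-5p, whose transcription under NF-kB is described above, was the second most abundant of all members. miR-146a-5p had 528 and 344 CPM in TAA-treated liver, against 276 and 352 CPM in control liver. In TMM-scaled CPM, TAA 1 was above both controls, while TAA 2 lay just below control 2. By share of miRNA counts TAA 2, at 0.03605%, lay above control 2, at 0.03258%. It averaged 436 ± 130 CPM in TAA-treated and 314 ± 53.7 CPM in control liver (SD, n = 2 each). The log2 fold change was 0.47 (SE 0.21, 95% interval -0.02 to 0.97), with an edgeR adjusted p of 0.219. Without TAA 1 it was 0.125, without TAA 2 it was 0.75, without control 1 it was 0.29 and without control 2 it was 0.65.

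miR-146b-5p rose. It had 27.1 and 20.4 CPM in TAA-treated liver, against 13.4 and 15.4 CPM in control liver. Both TAA libraries lay above both controls, by 1.33-fold to 2.02-fold between single libraries. It averaged 23.8 ± 4.78 CPM in TAA-treated and 14.4 ± 1.36 CPM in control liver (SD, n = 2 each). The log2 fold change was 0.72 (SE 0.20, 95% interval 0.25 to 1.19), with an edgeR adjusted p of 0.0471, close to the threshold. Of the 644 miRNAs tested, 103 had a smaller p and 117 a larger log2 fold change. Without TAA 1 the change was 0.499, without TAA 2 0.92, without control 1 0.61 and without control 2 0.815. DESeq2 gave an adjusted p of 0.00833. The call was lost with RLE factors (0.71, adjusted p = 0.0514), upper-quartile factors (0.55, adjusted p = 0.113), a minimum of 10 CPM (0.80, adjusted p = 0.0596) and the Dlk1-Dio3 miRNAs removed (0.76, adjusted p = 0.0898).

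**Figure D2:**
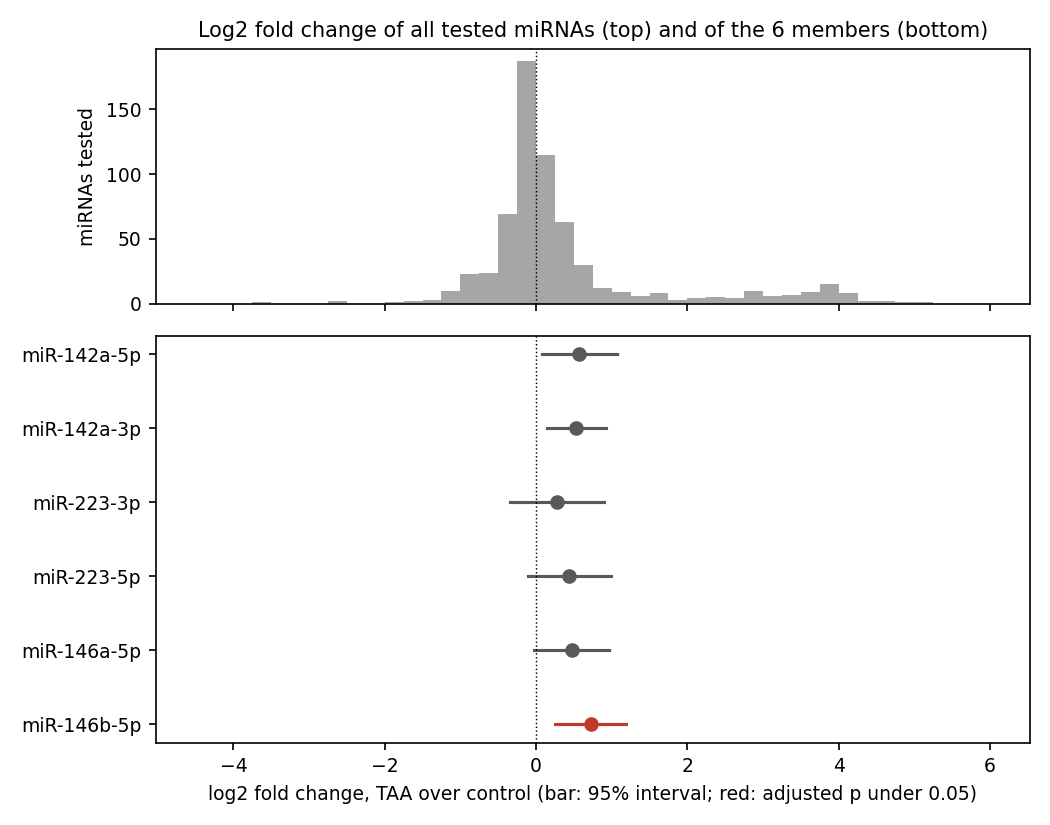
Log2 fold change of TAA over control: the top panel counts all 644 tested miRNAs per bin of 0.25, and the bottom panel gives each of the 6 with its 95% interval, red where the adjusted p was under 0.05. The 6 estimates lie between 0.28 and 0.72, and only the interval of miR-146b-5p is red.

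The paralogs differed in level far more than in response. The count of miR-146a-5p was 19.5 and 16.9 times that of miR-146b-5p in TAA-treated liver, against 20.6 and 23.0 times in control liver. miR-146b-5p therefore made up 4.89% and 5.60% of the pair in TAA-treated liver, against 4.63% and 4.17% in control liver. The groups did not overlap in this ratio, with a difference of -0.26 on the log2 scale (miR-146a-5p over miR-146b-5p, TAA minus control). The exact two-sided permutation p was 0.333, the smallest that 2 libraries against 2 can give. The summed pair, which is the supply of the shared seed and does not depend on how reads were divided between the paralogs, reached 555 and 364 CPM in TAA-treated liver, against 290 and 368 CPM in control liver. In TMM-scaled CPM the groups overlapped in that sum. By share of miRNA counts the sum was higher in TAA 2 than in control 2.

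The responses of the members were compared by the log2 ratio of their counts within a library, which needs no scaling. In 13 of the 15 pairs of members the libraries of the groups overlapped. A separation of 2 libraries against 2 has an exact permutation p of 0.333, and the pairs share members. The share among pairs of other miRNAs was not measured, so this count does not show that the members moved together. The differences in response were at most 0.37 on the log2 scale, for miR-223-3p against miR-146b-5p. That limit rested on the libraries: the largest difference was 0.44 without TAA 1, 0.63 without TAA 2, 0.72 without control 1 and 0.40 without control 2. The difference of miR-223-3p minus miR-146b-5p was -0.37 with all libraries, -0.72 without control 1 and -0.026 without control 2. Besides the miR-146 pair, the groups were separate for miR-142a-5p over miR-223-3p, which was 4.72 and 4.70 in TAA-treated liver, against 4.52 and 4.35 in control liver. That difference was 0.27 with an exact permutation p of 0.333, and all 15 p-values were 1 after Benjamini-Hochberg adjustment. With 2 libraries against 2 no difference of any size could have passed this test.

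The hairpins favoured opposite arms, as printed here with both mature arms in capitals.
Mir142 hairpin: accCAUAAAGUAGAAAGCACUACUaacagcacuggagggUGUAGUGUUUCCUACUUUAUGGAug
Mir223 hairpin: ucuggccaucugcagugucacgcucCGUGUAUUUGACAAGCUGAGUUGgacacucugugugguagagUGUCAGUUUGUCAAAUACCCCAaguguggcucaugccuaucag

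For miR-142a the 5p count was 14.0 and 12.4 times the 3p count in TAA-treated liver, against 11.2 and 14.1 times in control liver. For miR-223 the 3p count was 20.1 and 14.4 times the 5p count in TAA-treated liver, against 14.7 and 22.6 times in control liver. In both hairpins the controls lay farther apart than the TAA libraries. In log2 of 5p over 3p, TAA minus control was 0.07 for miR-142a (SE 0.21, 95% interval -0.45 to 0.59) and 0.09 for miR-223 (SE 0.29, 95% interval -0.64 to 0.83). The limma adjusted p was 0.985 for each. Of the 150 hairpins tested, 0.00% passed limma's test, 3.33% had an unadjusted p under 0.05, neither of these hairpins among them, and the groups did not overlap in 30.7%. No change in arm use was detectable, and the intervals reach no farther than 0.83 log2 units from 0.

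The miR-146 hairpins accumulated almost exclusively the 5p arm, and their 3p arms were too rare for the arm test, which asked for a mean of 20 counts in each arm. miR-146a-3p had 8 and 13 counts in TAA-treated liver, against 21 and 22 in control liver. Those counts ran opposite to its 5p partner, with no overlap between groups. The fit over all miRNAs gave miR-146a-3p a log2 fold change of -1.22 (SE 0.49) and an edgeR adjusted p of 0.159. The 5p count was 3000 and 1360 times the 3p count in TAA-treated liver, against 557 and 684 times in control liver, ratios that rest on at most 22 reads of the rare arm. miR-146b-3p had 6 and 6 counts in TAA-treated liver, against 5 and 8 in control liver, and was not tested.

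**Figure D3:**
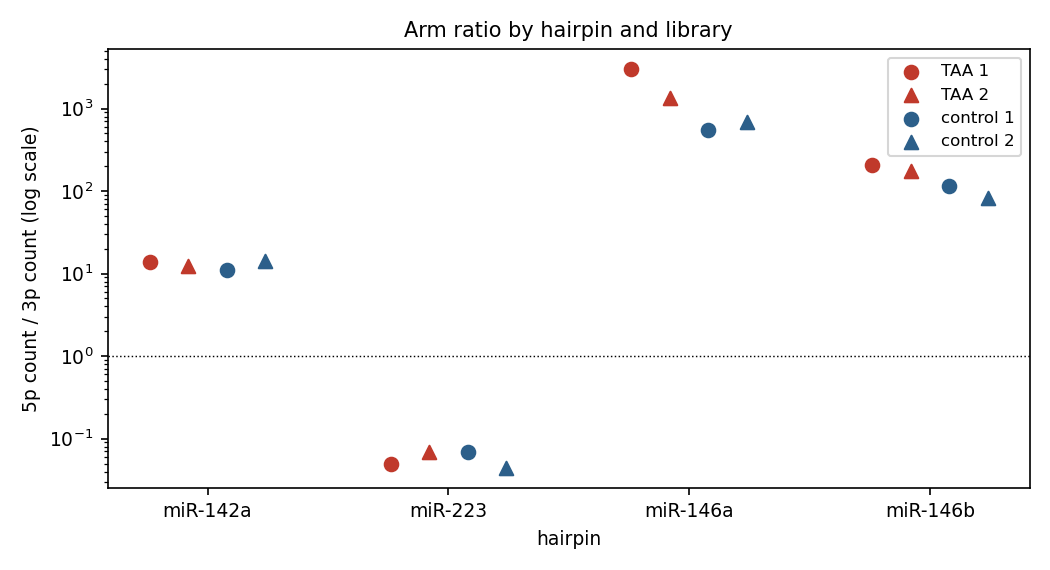
Ratio of 5p to 3p counts (vertical axis, log scale) for the 4 hairpins in each library; red is TAA, blue is control, and the dotted line marks equal arms. miR-142a lies near 11 to 14 and miR-223 well below 1 in every library, while the miR-146a ratios rest on few 3p reads.

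Of 9 other miRNAs that TLR and NF-kB signalling induces or alters, 3 rose and none fell, against 14.0% and 2.64% of the tested miRNAs. The list's median log2 fold change was 0.44. miR-155-5p, which is induced in activated macrophages and lymphocytes, had 11.0 and 12.0 CPM in TAA-treated liver, against 6.24 and 5.71 CPM in control liver. Its log2 fold change was 0.95 (SE 0.19) at an edgeR adjusted p of 0.0102. let-7e-5p, which is induced in macrophages by endotoxin, had 240.5 and 224 CPM in TAA-treated liver, against 165 and 151 CPM in control liver. Its log2 fold change was 0.56 (SE 0.13) at an edgeR adjusted p of 0.0248. The other that rose was miR-212-3p, named after its values were seen. miR-155-5p and let-7e-5p were named for the 2 smallest edgeR p-values of the list. The list's most abundant member, miR-21a-5p, had 35610 and 34080 CPM in TAA-treated liver, against 27860 and 37690 CPM in control liver, with control 1 again the lowest. Without TAA 1, and also without TAA 2, 0 of the 9 passed. Without control 1, 2 passed, and without control 2, 2 passed. With upper-quartile factors 1 passed, and with the Dlk1-Dio3 miRNAs removed 1 passed.

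The lymphocyte list was measured as the nearest leukocyte comparison. In it 4 of 6 miRNAs rose and none fell, against 14.0% and 2.64% of the tested miRNAs. The list's median log2 fold change was 0.82. The lymphocyte miRNA miR-150-5p had 188 and 172 CPM in TAA-treated liver, against 67.4 and 74.6 CPM in control liver, so that its controls differed far less than those of miR-142a-5p. miR-155-5p stands in this list as well as in the previous one. miR-181a-5p, the most abundant, had 3397 and 2884 CPM in TAA-treated liver, against 3137 and 3036 CPM in control liver. The other risers, miR-342-3p and miR-342-5p, are arms of 1 hairpin and were named after their values were seen. miR-150-5p and miR-155-5p were named for the 2 smallest edgeR p-values of the list. Without TAA 1, and also without TAA 2, 1 of the 6 passed, and without control 1, 3 passed. With upper-quartile factors 2 passed, and with the Dlk1-Dio3 miRNAs removed 2 passed. No test of the difference between the lymphocyte miRNAs and the 6 members was run.

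Of 8 miRNAs tied to myeloid differentiation, 0 passed edgeR's test in either direction, 0 had an unadjusted p under 0.05, and 0 passed with DESeq2 or limma-voom. Their median log2 fold change was -0.005, and -0.13 without control 1 and 0.07 without TAA 2. In this list miR-17-5p had 113 and 111 CPM in TAA-treated liver, against 127 and 128 CPM in control liver, and miR-20a-5p 110 and 101 CPM, against 116 and 124 CPM. Both belong to the same cluster, whose fall accompanies monocyte maturation in human cells. Neither passed the edgeR test (adjusted p = 0.455 and 0.467). miR-21a-5p, the most abundant, is described above.

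Lists of other liver cells were followed beside the members. All 5 of the erythroid list rose, both arms of miR-144 among them, against 14.0% of the tested miRNAs. The erythroid median log2 fold change was 2.23, and 1.03 without TAA 2. All 5 also passed with RLE factors, upper-quartile factors and library size alone. With limma-voom 2 passed. With DESeq2, with a minimum of 10 CPM, and with the Dlk1-Dio3 miRNAs removed, 0 passed. miR-486a-5p had 418 and 1478 CPM in TAA-treated liver, against 245 and 158 CPM in control liver, while TAA 2 was the highest library for miR-223-5p alone of the 6 members. Of the 6 hepatocyte miRNAs, 0 passed with edgeR, DESeq2 or limma-voom, and 3 had an unadjusted p under 0.05. In TMM-scaled CPM both TAA libraries lay below both controls in all 6, against 25.6% of the tested miRNAs. By share of miRNA counts, TAA 2 lay above control 1 for miR-122-5p, miR-192-5p and miR-194-5p. The hepatocyte median log2 fold change was -0.22, and -0.09 with library size alone. Neither of the 2 endothelial miRNAs passed or had an unadjusted p under 0.05. Among the 6 of the mesenchymal list, which marks stellate and smooth muscle cells, miR-214-3p alone passed as higher, against 14.0% of the tested miRNAs. The median log2 fold change was 0.39, with 4 of the 6 above 0. Those below 0 were miR-145a-5p (-0.41) and miR-143-3p (-0.041), the most abundant of the list. miR-214-3p had 95.97 and 77.1 CPM in TAA-treated liver, against 59.3 and 50.95 CPM in control liver. It did not pass with upper-quartile factors or with the Dlk1-Dio3 miRNAs removed. The mesenchymal median was 0.51 without control 1 and 0.25 without control 2. Of the 2 pancreatic miRNAs and 1 muscle miRNA tested, 0 passed with any of these tools, and 1 of each list had an unadjusted p under 0.05. Over the pancreatic miRNAs kept for each fit, the median log2 fold change was -3.07 with all libraries, -4.03 without control 2 and 0.19 without control 1.

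**Figure D4:**
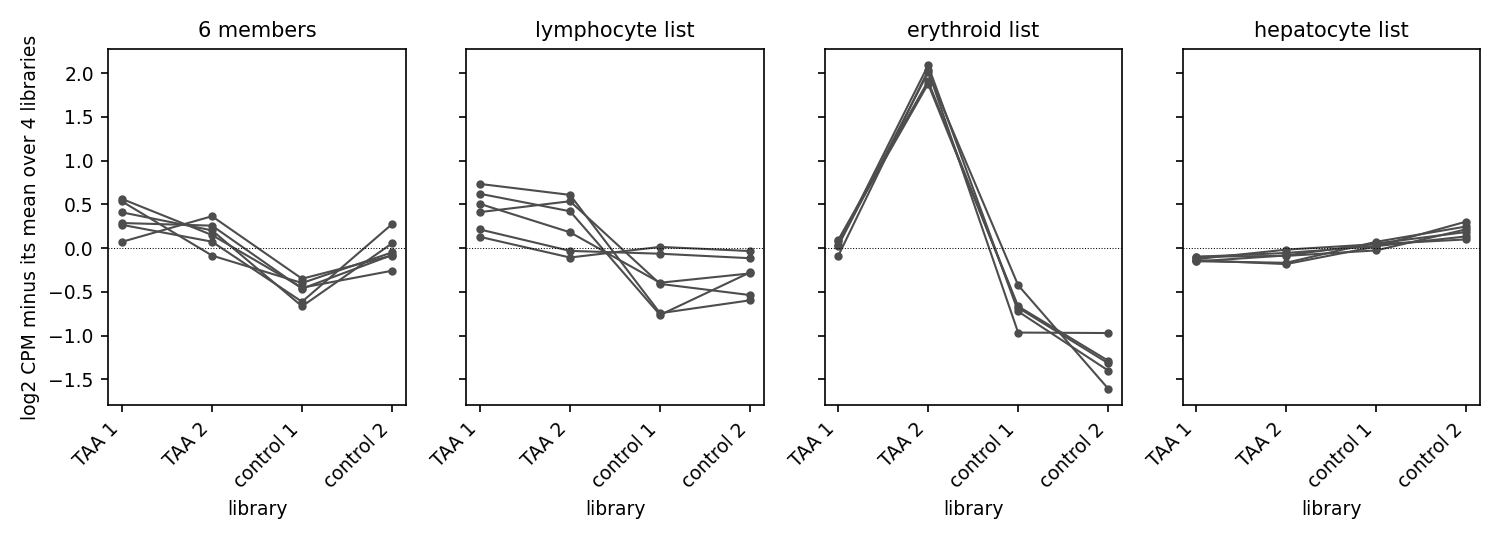
Log2 CPM of each miRNA minus its own mean over the 4 libraries (vertical axis), by library, for the 6 members and the lymphocyte, erythroid and hepatocyte lists; each line is 1 miRNA. The members dip in control 1 and the erythroid miRNAs peak in TAA 2.

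The miRNAs with the most similar pattern over the 4 libraries were sought among 135 others with a mean of at least 100 CPM, by Euclidean distance between centred log2 CPM values. miR-99b-5p was among the 3 nearest for 4 of the 6 members: both arms of miR-142a, miR-146a-5p and miR-146b-5p. Its distance was 0.32 to miR-142a-3p and 0.54 to miR-142a-5p, and its own log2 fold change was 0.42 (edgeR adjusted p = 0.031). let-7e-5p was the nearest to miR-146b-5p, at 0.35. miR-21a-5p was the nearest to miR-223-3p, at 0.41, with its lowest value in control 1 and its highest in control 2, as miR-223-3p had. miR-31-5p was the nearest to miR-223-5p, at 0.23. These likenesses over 4 libraries are descriptions.

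Normalization moved all 6 together: upper-quartile factors, which shifted the median log2 fold change of all tested miRNAs to -0.17, gave the members log2 fold changes of 0.085 to 0.55, a median of 0.32 and 0 calls. Library size alone, which shifted that median to 0.12, gave 0.41 to 0.85, a median of 0.63 and 4 calls. The members' median thus moved about as far as that of all miRNAs.

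**Figure D5:**
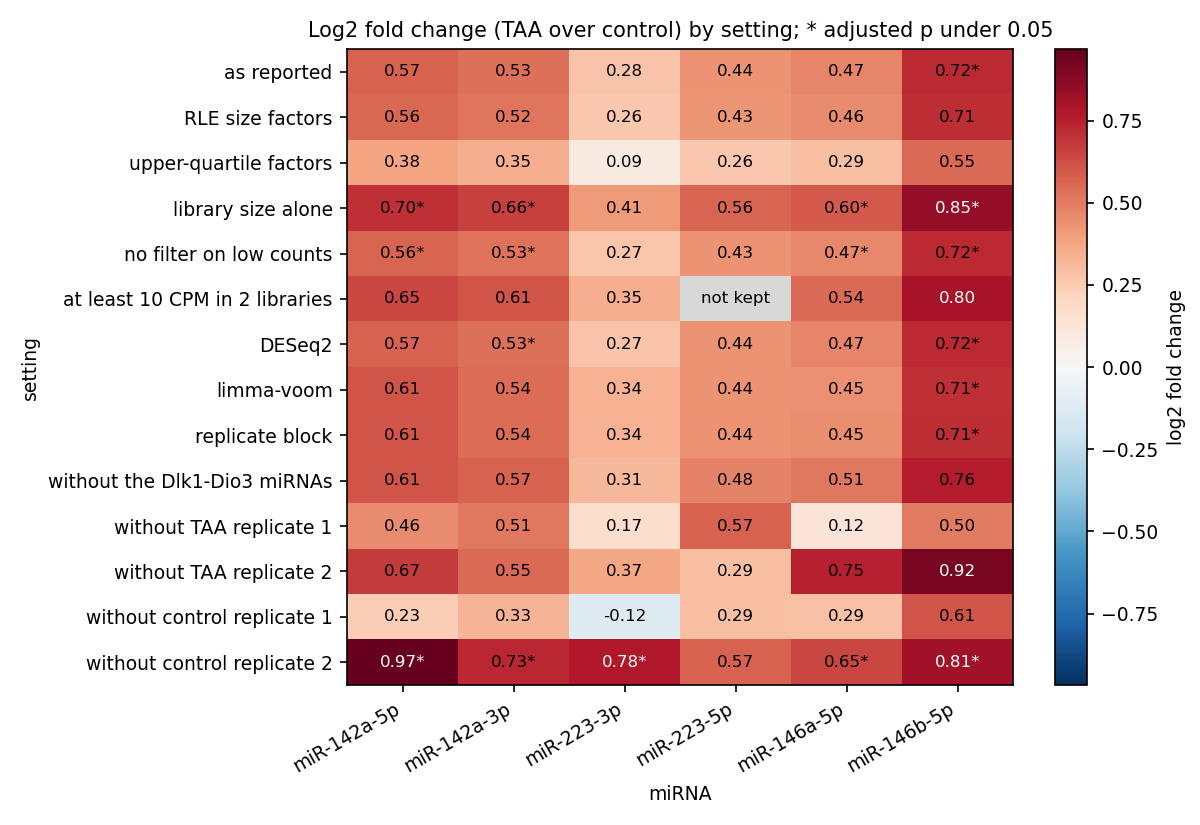
Log2 fold change of TAA over control for each miRNA (columns) under each setting (rows), with colour on the same scale and an asterisk where the adjusted p was under 0.05. The value for miR-223-3p without control 1, -0.12, is the only one below 0. Rows without a library leave 1 library in a group, so their asterisks hold nothing of the spread within that group.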

How the data were processed

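Per the labels' protocols, total RNA of mouse liver was isolated with an miRNeasy kit and made into TruSeq small RNA libraries. The authors deposited raw counts of reads for each mature miRNA, with 1 file for each of the 4 libraries. Bowtie, HTSeq and mm10 are named in the submitters' processing notes; no source used here gives versions, settings, adapter trimming or the miRNA release. The 5 summary rows that name no miRNA were left out of library sizes and tests: reads outside annotated miRNAs were 22.8% to 26.4% of all, and unaligned reads 7.11% to 8.49%.

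The whole table was fitted with edgeR 4.0.16 under R 4.3.3, with TMM factors, the filterByExpr filter and the quasi-likelihood F test, and p-values were adjusted over the 644 miRNAs kept. The standard error is the log2 fold change divided by the square root of F. Arm ratios, log2 of 5p over 3p counts each plus 0.5, were tested with limma 3.58.1. Both procedures were tested on simulated data. The abundance test called 60.8% of 2-fold changes, 94.7% of 4-fold changes and 0.236% of unchanged miRNAs. Changes under 2-fold, the size of those fitted for the members, were not simulated. The simulated counts took their spread from the fit to these data, with rises and falls planted in equal number. Unequal numbers of rises and falls, and errors of scaling, were not simulated, so these rates may not hold here. The arm test called 95% of 4-fold changes, the only size simulated for it, with a common spread and equal depth in all libraries. Replicates differed beyond sampling noise, with a chi-square per degree of freedom of 375.5 between TAA and 289.2 between control libraries. Intervals of counts are exact Poisson intervals at 95% and cover counting error only.

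Alternatives were other factors and filters, DESeq2 1.42.0, limma-voom, replicate blocks, removal of the Dlk1-Dio3 miRNAs and leaving out each library. The named miRNAs are the members, their partner arms, the most abundant and the 2 smallest p of each list, the 3 nearest patterns and miRNAs with a member's seed. For lists of other cell types the text names fewer. The members and lists were chosen with earlier results of these data known.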

Additional observations from a re-analysis of the deposited data

How the results depend on the processing

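The log2 fold change was above 0 in 82 of the 83 member values under alternative settings. The exception was miR-223-3p without control 1, at -0.12, against 0.78 without control 2. These values are refits of the same 4 libraries and not separate observations of the direction. How many passed was less stable than the direction. Of 6 members, 1 passed as reported, 0 with RLE or upper-quartile factors, 0 with at least 10 CPM in 2 libraries, 0 with the Dlk1-Dio3 miRNAs removed, 2 with DESeq2, 4 with library size alone and 4 with no filter on low counts. Leaving out 1 library gave 0 to 5 members. Of all miRNAs 107 passed, 41 with at least 10 CPM in 2 libraries, 14 with the Dlk1-Dio3 miRNAs removed and 49 to 131 leaving out 1 library. With those removed, 579 miRNAs were tested in place of 644. Replicate numbers are shared by title alone, and deviations of same-numbered libraries correlated at -0.28 over 273 miRNAs. A replicate block gave 110 miRNAs and 1 member, and changed no member's call. A crossed pairing block, added after the data were seen, gave 115 miRNAs and 4 members. Among hairpins, 0 passed as reported, 1 with at least 100 counts in each arm, 0 with the replicate block and 0 to 13 leaving out 1 library. Leaving out 1 library, the arm change of miR-142a ranged from -0.10 (without control 1) to 0.24 (without control 2), with -0.02 without TAA 1. That of miR-223 ranged from -0.22 (without control 2) to 0.41 (without control 1), with -0.15 without TAA 2. Nearest patterns were the same 3 for each member with library size alone, since a scaling shifts all miRNAs of a library alike. The cause of these changes was not tested.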
